A study of Mus musculus with 8 samples.

Results

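The chemokine receptor genes of mouse chromosome 9 were followed through 8 RNA libraries of regulatory T (Treg) cells with and without BRG1, the ATPase subunit of the chromatin-remodeling BAF complex. The genes were chosen by name and position: Ccr9, Cxcr6, Xcr1, Ccr1, Ccr1l1, Ccr3 and Ccr2, which lie within 435 kb of each other, and Ccrl2, which lies 12.6 Mb away on the same chromosome. These are 8 of the 53465 genes in the files. The rule names no measured value, but the genes were chosen with earlier results of these data known. Counts of called members are thus descriptions. The question was how much of each receptor transcript the Treg cells held in each condition, and whether neighbours on the chromosome moved together.

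The total Treg experiment had 6 libraries and the activated Treg (aTreg) experiment had 2, with 1 library per condition. All came from spleen and lymph nodes of mice aged 3 to 4 weeks and given as C57BL/6. Per the study's methods, mice with the reversible Brg1 allele ΔR began on a mixed background and had 3 generations of backcrossing to C57BL/6. The genotype of the WT library does not hold this allele, and the part of strain background in the values was not tested. All mice carried R26CAG-FlpoER, a Flpo recombinase that tamoxifen (TAM) switches on and that is driven by the CAG promoter. Cre and YFP came from the X-linked Foxp3 locus, so deletion was limited to cells that use this locus. The WT library was from BrgF/+ Foxp3YFP-Cre/+ mice, whose Treg cells had thus lost 1 Brg1 allele where Cre was active. The mosaic libraries were both from BrgF/ΔR females, in which X inactivation leaves Brg1-sufficient cells (labelled Foxp3+/+) beside Brg1-deleted cells (labelled Foxp3YFP-Cre) in the same females. The untreated rKO1 library was from BrgF/ΔR Foxp3YFP-Cre/YFP-Cre mice, in which Treg cells without BRG1 live amid severe inflammation. The GFP+ Brg1-deleted library was from such mice on Day 7 after TAM, and the GFP- Brg1-reexpressed library was from the cells in which Flpo had repaired the ΔR allele, labelled BrgF/+. The aTreg libraries were the CD44hi CD62Llo cells of TAM-treated rKO1 mice. The aTreg library titled as deleted carries the genotype BrgF/F in its description and a value column headed as WT, so both are called by their titles as "labelled deleted" and "labelled reexpressed". Nothing in the sources used here says how many mice stood behind a library.

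Chemokine receptors are surface receptors that sense gradients of small secreted proteins, the chemokines, and steer the cell along them through Gi proteins. Treg cells use them to follow effector cells into inflamed tissue. CCR2, CCR1 and CCR3 read ligands made at sites of inflammation, CXCR6 binds CXCL16 and is a receptor of tissue-homing T cells, and CCR9 binds CCL25 and guides T cells to the small intestine. XCR1 marks cross-presenting dendritic cells, CCR3 is best known from eosinophils, and CCRL2 is an atypical receptor that presents the attractant chemerin and does not signal.

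Between 16319348 and 24087149 reads on genes were recovered per library, so that 1 read equalled 0.0411 to 0.0602 CPM, counts scaled to a common library size, after scaling by the trimmed mean of M-values (TMM). Smarca4, the gene for BRG1, stood at 87.9 and 77.0 CPM in the WT and mosaic Brg1-sufficient libraries, at 47.1, 44.0 and 36.0 in the mosaic deleted, untreated rKO1 and GFP+ libraries, and at 57.9 in the GFP- library. In the aTreg pair it went against the titles, with 71.2 CPM in the library labelled deleted and 59.4 in the one labelled reexpressed. This gene is only a partial check, as the exons upstream of the ΔR gene trap are still transcribed. All 7 Treg markers of the list reached 5 CPM in all 8 libraries, with Foxp3 between 62.2 and 614 CPM. The highest Foxp3 level was in the mosaic sufficient library, whose cells were YFP- and so could not be gated on the Foxp3 reporter. The 4 Y-linked genes of the list were at the floor of 3 reads in the WT and mosaic libraries and above it in the other 5. Xist was at 0.523 CPM in the untreated rKO1 library, whose label gives 2 Foxp3 alleles, and at 12.3 to 164 CPM elsewhere. Within the mosaic pair Xist was at 137 and 164 CPM and the Y-linked genes had 0 reads in both libraries. GFP+ and GFP- cells both held Y-linked reads, with Xist at 51.0 and 45.4 CPM. The aTreg libraries both held Y-linked reads too, with Xist at 12.3 CPM in the one labelled deleted and 42.4 in the other. In comparisons with untreated rKO1, or of WT or mosaic with rKO1 libraries, the sex of the mice and the condition cannot be told apart.

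Along the chromosome (GRCm38, GENCODE release M21) the order was Ccrl2 (chr9:111054486-111057519), Ccr9 (chr9:123678439-123784330), Cxcr6 (chr9:123806475-123811760), Xcr1 (chr9:123852315-123862029), Ccr1 (chr9:123962124-123968692), Ccr1l1 (chr9:123977243-123978408), Ccr3 (chr9:124021972-124031689) and Ccr2 (chr9:124101950-124113557). Cxcr6 lies inside the span of Fyco1, which is read from the opposite strand, but shares no exon base with it. Ccr9 shares 21.5% of its exon bases with Slc6a20a, Gm17200 and AC165425.1, so part of its reads could belong to those genes. No other member shares exon bases with another gene.

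Start-site windows from RefSeq (GRCm38.p6), from 250 bases before to 50 after the start, were at hand for all 8 members. The Ccr9 window lies inside the GENCODE span of the gene, downstream of the GENCODE start at chr9:123678439. The Ccr1l1 window (chr9:123986666-123986965) lies outside the GENCODE span of its gene, upstream of the start at chr9:123978408. Most of the Ccr2 window lies inside its gene, past the GENCODE start at chr9:124101950. Distances, the 435 kb span and the exon length of Ccr9 rest on the GENCODE annotation. The windows of Ccr3 and Ccr2, the adjacent pair with the largest differences, of Cxcr6 and Ccr1, and of Ccr9 are printed 5′ to 3′ on the strand of the gene. Among the total Treg libraries, Ccr9 was lowest where Ccr2 was highest. Capitals mark matches to 6 short motifs of T cell transcription factors, searched on both strands.
Ccr2 (chr9:124101933-124102232, + strand): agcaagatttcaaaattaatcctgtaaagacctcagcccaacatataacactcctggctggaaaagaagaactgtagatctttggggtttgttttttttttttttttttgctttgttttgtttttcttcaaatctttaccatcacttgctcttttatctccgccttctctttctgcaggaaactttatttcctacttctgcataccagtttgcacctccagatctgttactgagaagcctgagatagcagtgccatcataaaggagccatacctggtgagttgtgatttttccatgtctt
Ccr3 (chr9:124021721-124022020, + strand): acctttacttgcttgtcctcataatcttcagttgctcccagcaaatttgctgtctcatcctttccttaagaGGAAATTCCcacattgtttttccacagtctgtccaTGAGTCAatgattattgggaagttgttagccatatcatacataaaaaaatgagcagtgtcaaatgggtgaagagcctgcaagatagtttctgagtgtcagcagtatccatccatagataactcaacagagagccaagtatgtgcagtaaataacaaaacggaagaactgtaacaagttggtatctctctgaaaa
Ccr1 (chr9:123968643-123968942, - strand): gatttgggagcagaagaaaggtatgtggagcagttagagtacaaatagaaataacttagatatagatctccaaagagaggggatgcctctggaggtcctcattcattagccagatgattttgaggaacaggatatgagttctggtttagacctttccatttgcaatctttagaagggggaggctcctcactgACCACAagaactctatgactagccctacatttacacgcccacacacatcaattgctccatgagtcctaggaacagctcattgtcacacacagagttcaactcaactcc
Cxcr6 (chr9:123806227-123806526, + strand): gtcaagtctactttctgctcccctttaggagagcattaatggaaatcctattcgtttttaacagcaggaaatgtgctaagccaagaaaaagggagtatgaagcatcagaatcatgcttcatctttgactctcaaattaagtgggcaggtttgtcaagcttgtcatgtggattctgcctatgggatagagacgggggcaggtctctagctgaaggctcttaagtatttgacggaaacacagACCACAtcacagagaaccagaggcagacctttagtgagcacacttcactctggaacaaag
Ccr9 (chr9:123766961-123767260, + strand): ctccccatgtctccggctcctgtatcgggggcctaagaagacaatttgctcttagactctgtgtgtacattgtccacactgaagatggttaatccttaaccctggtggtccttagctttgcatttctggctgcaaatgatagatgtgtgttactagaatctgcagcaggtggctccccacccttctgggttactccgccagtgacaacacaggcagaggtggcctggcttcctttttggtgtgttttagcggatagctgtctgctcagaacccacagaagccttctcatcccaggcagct
The Ccr3 window held a match to the AP-1 motif TGANTCA at position -144 from the start and one to the NF-kappaB motif GGANNTTCC at -179, on both strands at once. The RUNX motif TGTGGT, read from the other strand, was in the Ccr1 window at -58 and in the Cxcr6 window at -10. The Ccr1l1 window, not printed, held the RUNX motif, the AP-1 motif and the STAT motif TTCNNNGAA. Of the 3 overlapping Ccrl2 windows, the first held the NF-kappaB motif at -68. No match to these motifs, to the T-box motif AGGTGT or to the forkhead motif TGTTTAC was in the windows of Ccr2, Ccr9 or Xcr1, and no 2 motifs overlapped. Of 32851 windows of this length in the table, 7.81% held the AP-1 motif, 4.26% the NF-kappaB, 16.8% the RUNX, 8.30% the STAT, 13.7% the T-box and 3.65% the forkhead motif. CpG pairs were few in the printed windows, with 1 each for Ccr1, Ccr2 and Ccr3, 3 for Cxcr6 and 4 for Ccr9, against a median of 7 over all windows. The windows not printed had 3 for Ccr1l1, 6 for Xcr1 and 6, 8 and 8 for Ccrl2.

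Per kb of exon, Cxcr6 was the most abundant member in 7 of the 8 libraries. Its median over the 6 total Treg libraries was 30.8 CPM per kb, followed by Ccrl2 with 8.14, Ccr2 with 4.78, Ccr3 with 1.25, Ccr9 with 1.04, Xcr1 with 0.411 and Ccr1 with 0.356. The exception was the mosaic Brg1-deleted library, where Ccrl2 led with 6.69 CPM per kb and Cxcr6 followed with 3.30. Summed over the members, that library held 11.7 CPM per kb, the lowest of all, and the GFP- Brg1-reexpressed library held 146, the highest of the total Treg experiment. Ccr1l1, a Ccr1-like gene next to Ccr1, had no read in any total Treg library and 2 reads in each aTreg library, which is under the floor of 3 reads, or 0.123 to 0.181 CPM. It is not described further.

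**Figure D1:**
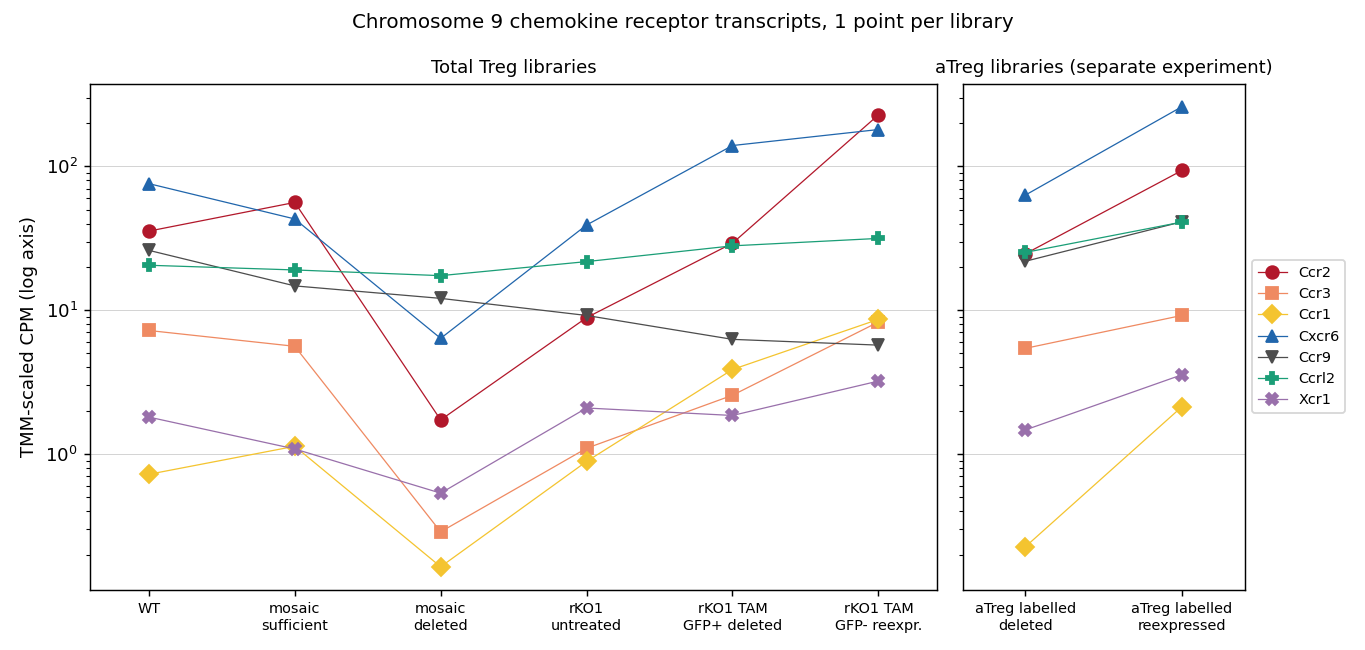
TMM-scaled CPM (log axis) of 7 members in each library, 1 point per library, with lines that only join the points of a gene. Ccr2, Ccr3, Ccr1 and Cxcr6 were lowest in the mosaic Brg1-deleted library, while Ccrl2 stayed between 17.4 and 31.6 CPM in the total Treg libraries and Ccr9 went down from 26.1 to 5.72 CPM.

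Ccr2, the receptor of CCL2 and a receptor by which leukocytes reach inflamed tissue, had the widest range of all members. In the order WT, mosaic sufficient, mosaic deleted, rKO1 before TAM, then GFP+ and GFP- rKO1 cells after TAM, its reads were 589, 1191, 42, 170, 536 and 3829, or 35.5, 56.2, 1.73, 8.88, 29.2 and 228 CPM. Each step in the order of these levels was larger than the counting error, the smallest being WT over GFP+ at 1.21-fold (95% interval 1.08 to 1.37). Intervals throughout are exact binomial ones, made from the reads of both libraries, and cover counting error only, since a single library per condition gives no spread between animals.

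Ccr3, the receptor of the eotaxins, was low throughout. Its reads in the same order were 120, 119, 7, 21, 47 and 139, or 7.23, 5.61, 0.288, 1.10, 2.56 and 8.28 CPM. The GFP-, WT and mosaic sufficient libraries were high, and neighbours in that order did not differ beyond counting error, while the 3 libraries without BRG1 were low and differed from each other.

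Cxcr6 had 1260, 914, 155, 749, 2561 and 3029 reads, or 75.9, 43.1, 6.37, 39.1, 140 and 180 CPM. It was high in both libraries from TAM-treated rKO1 mice, whether or not BRG1 was there. The mosaic sufficient and untreated rKO1 libraries did not differ beyond counting error (1.10-fold, 0.999 to 1.22).

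Ccr1, a receptor of CCL3 and CCL5, had 12, 24, 4, 17, 71 and 145 reads, or 0.723, 1.13, 0.164, 0.888, 3.87 and 8.63 CPM. It passed 5 CPM in the GFP- library alone. The mosaic sufficient, untreated rKO1 and WT libraries could not be ordered at this depth.

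Ccr9 had 433, 313, 294, 176, 115 and 96 reads, or 26.1, 14.8, 12.1, 9.19, 6.27 and 5.72 CPM. It was thus highest in WT and lowest in the library in which Ccr2, Cxcr6 and Ccr1 were highest. The last step, GFP+ over GFP-, was within counting error (1.10-fold, 0.829 to 1.45).

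Ccrl2 had 341, 404, 423, 417, 514 and 530 reads, or 20.5, 19.0, 17.4, 21.8, 28.0 and 31.6 CPM. As a ratio of the highest to the lowest library, its range was the narrowest of the detected members, and of the 5 steps only that from untreated rKO1 to GFP+ passed counting error (1.29-fold, 1.13 to 1.47). Xcr1 had 30, 23, 13, 40, 34 and 54 reads, or 1.81, 1.08, 0.534, 2.09, 1.85 and 3.22 CPM, and did not reach 5 CPM in any library.

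The mosaic pair sets Brg1-deleted Treg cells against the Brg1-sufficient ones that live beside them in the same females. The 2 libraries also differ in the Foxp3 allele in use, in Cre and in the YFP gate. These differences cannot be told apart from BRG1 loss here. Foxp3 was at 281 CPM in the deleted and 614 in the sufficient library, and Ncr1 had 1 and 104 reads. Ccr2 was 32.5-fold lower in the Brg1-deleted than in the Brg1-sufficient cells (23.9 to 45.4), Ccr3 was 19.5-fold lower (9.18 to 49.5) and Cxcr6 was 6.76-fold lower (5.70 to 8.07). Ccr9 was 1.22-fold lower (1.04 to 1.44) and Ccrl2 1.10-fold lower (0.953 to 1.26), both short of the 2-fold used to call a gene, and for Ccrl2 the direction was lost when libraries were scaled by total count alone. A gene was tested when it reached 5 CPM in either library, which 5 of the 8 members did, and 3 of these 5 were called, all lower. Of 10069 genes tested, 6.12% were called and 4.05% were called lower. Ccr3 and Ccr2 passed the filter through the sufficient library alone, with 0.288 and 1.73 CPM in the deleted one, so the count is a description. The median log2 fold change was -2.76 over the 5 members and -0.03 over all genes tested. Among members under 5 CPM, Ccr1 had 4 reads against 24 (6.88-fold lower, 2.36 to 27.3) and Xcr1 had 13 against 23. In bulk RNA, fewer cells with a transcript and less transcript per cell cannot be told apart.

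In TAM-treated rKO1 mice, the GFP- Brg1-reexpressed cells were set against the GFP+ cells that still lacked BRG1. Ccr2 was 7.80-fold higher with BRG1 (7.13 to 8.56), Ccr3 3.23-fold (2.31 to 4.60) and Ccr1 2.23-fold (1.67 to 3.01). By total count alone, which moved the median log2 fold change of all tested genes from 0.06 to -0.29, that of Ccr1 was 0.81, under 2-fold, and 2 members were called. Cxcr6, called in the mosaic pair, was 1.29-fold higher (1.23 to 1.36) from an already high level in the GFP+ cells, and at a log2 fold of 0.02 by total count. Ccrl2 was 1.13-fold higher (0.996 to 1.27), a direction that turned when libraries were scaled by total count alone. Ccr9 was at 0.912 times its GFP+ level (0.688 to 1.21). Of the 6 members tested, 3 were called, all higher, where 12.8% of 10319 genes were called and 7.08% were called higher. Ccr3 and Ccr1 passed the 5 CPM filter through the GFP- library alone, so the count is a description. The median log2 fold change was 0.76 over these 6 and 0.06 over all genes tested.

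**Figure D2:**
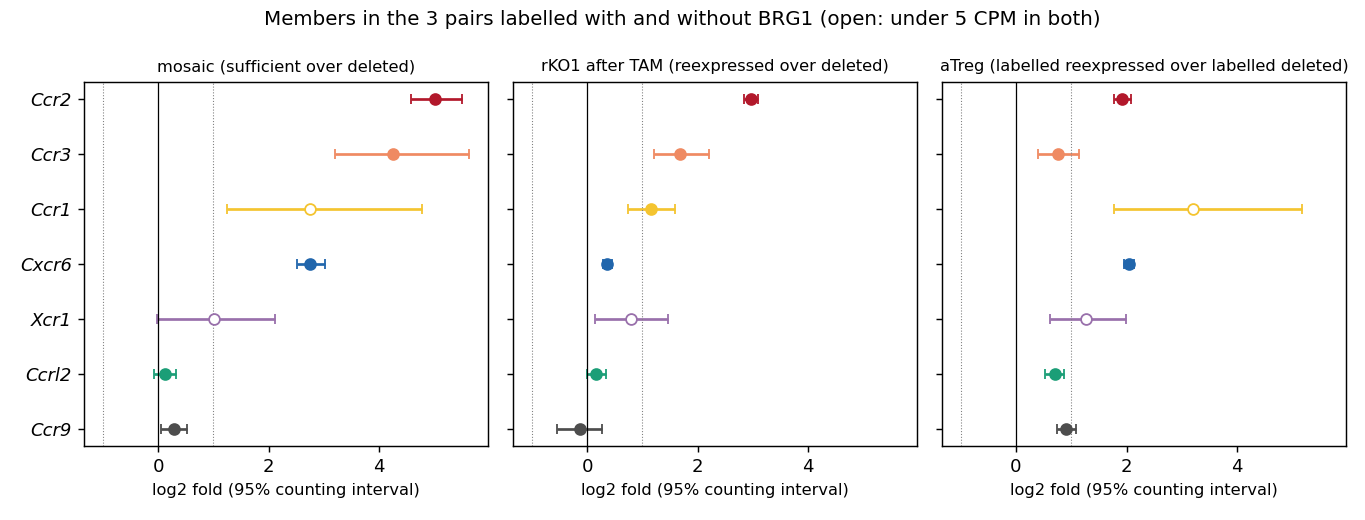
Log2 fold (x axis) of each member in the mosaic, rKO1 and aTreg pairs, with exact 95% intervals of the reads; open points had under 5 CPM in both libraries and dotted lines mark 2-fold. Ccr2 lies right of the 2-fold line in all 3 panels, at 5.02, 2.96 and 1.93, and Cxcr6 does so in the mosaic (2.76) and aTreg (2.04) panels but not after TAM (0.37).

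Without treatment, the rKO1 cells held less Ccr2 and Ccr3 than either BRG1-sufficient reference. Against WT, Ccr3 was 6.59-fold lower (4.12 to 11.03), Ccr2 4.00-fold lower (3.36 to 4.77) and Ccr9 2.84-fold lower (2.38 to 3.40), 3 called of 5 tested, where 15.7% of all genes were called and 7.11% were called lower. Against the mosaic sufficient cells, Ccr2 was 6.33-fold lower (5.38 to 7.47) and Ccr3 5.12-fold lower (3.20 to 8.57), 2 called of 5, where 17.3% were and 9.13% were called lower. Cxcr6 was 1.94-fold lower than in WT (1.77 to 2.13) and was not called in either. Ccr3, at 1.10 CPM in the untreated library, passed the filter through the reference library alone in both comparisons.

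Both Brg1-deleted populations that had seen no TAM were compared as well, one from mosaic females and one from inflamed rKO1 mice. Cxcr6 was 6.14-fold higher in the untreated rKO1 cells (5.16 to 7.35) and Ccr2 5.14-fold higher (3.65 to 7.39), 2 called of 4 tested, where 15.2% of genes were called and 8.17% were called higher. Ccr2, at 1.73 CPM in the mosaic deleted library, passed the filter through the untreated library alone. Ccr9 was at 0.760 times the mosaic level (0.627 to 0.920). The 2 libraries thus differ in these receptors although both lack BRG1. They also differ in Y-linked and Xist reads, and the part of that difference in these values was not tested.

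The GFP+ cells on Day 7 after TAM were set against untreated rKO1 cells, both without BRG1. Cxcr6 was 3.57-fold higher (3.29 to 3.88) and Ccr2 3.29-fold higher (2.77 to 3.94), 2 called of 4 tested, where 4.42% of genes were called and 2.16% were called higher. Under 5 CPM in both libraries, Ccr1 was 4.36-fold higher (2.54 to 7.90) and Ccr3 2.34-fold higher (1.37 to 4.12). Ccr9 was at 0.682 times its untreated level (0.535 to 0.868). These comparisons share the GFP+ or the untreated library with others above, so their values are not independent of them.

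The GFP- Brg1-reexpressed cells went past WT for some members and not for others. Against WT, Ccr1 was 11.9-fold higher (6.64 to 23.7), Ccr2 6.43-fold (5.89 to 7.02) and Cxcr6 2.38-fold (2.23 to 2.54), while Ccr3 was 1.15-fold higher (0.891 to 1.47), within counting error of WT. Ccr9 was 4.56-fold lower (3.65 to 5.75). That made 4 called of 6 tested, 3 higher and 1 lower, where 17.2% of genes were called, 9.7% higher and 7.46% lower. Against the mosaic sufficient cells the same 4 members were called in the same directions, where 21.8% of genes were called, 10.8% higher and 11% lower. Ccr1 passed the filter through the GFP- library alone in both comparisons, with 0.723 CPM in WT and 1.13 in the mosaic sufficient library. The references themselves had 0 of 5 members called between them, where 9.37% of genes were called, with Ccr2 1.58-fold lower (1.43 to 1.75) and Cxcr6 1.76-fold higher (1.62 to 1.92) in WT.

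In the aTreg pair, all 5 tested members were higher in the library labelled reexpressed. Cxcr6 had 1116 reads in the library labelled deleted and 5121 in the one labelled reexpressed (63.1 and 260 CPM, 4.12-fold, 3.87 to 4.40). Ccr2 had 436 and 1844 reads (24.6 and 93.7 CPM, 3.80-fold, 3.42 to 4.23). These 2 were called, where 6.44% of 10030 genes were called and 4.41% were called higher. Ccr9 had 387 and 811 reads (1.88-fold, 1.67 to 2.13), Ccr3 96 and 181 (1.69-fold, 1.32 to 2.19), and Ccrl2 446 and 807 (1.63-fold, 1.45 to 1.83). Ccr9 thus went with its neighbours here, while in the total Treg pair after TAM it lay within counting error of no difference. Under 5 CPM, Ccr1 had 4 and 42 reads (9.44-fold, 3.42 to 36.2) and Xcr1 26 and 70 (2.42-fold, 1.52 to 3.96). The median log2 fold change was 0.91 over the 5 members and -0.06 over all genes tested. As Smarca4 went against the titles in this pair, the direction is that of the titles alone.

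The aTreg library labelled reexpressed also stood apart in markers of other cells, and this touches each of these values. The erythroid list, hemoglobin genes for the most part, summed to 22872 CPM there and to 1174 CPM in the library labelled deleted, 2.25% and 0.119% of the reads. With its 6 genes left out of the library totals, the log2 fold change was 1.93 for Ccr2 and 2.04 for Cxcr6, as before. The eosinophil, basophil and mast cell list summed to 158 against 16.2 CPM, carried by Prg2 (145 against 10.01) and Epx (7.17 against 1.13), with Siglecf at 4 and 0 reads and Fcer1a and Ms4a2 at or under the floor in both. The myeloid list summed to 735 against 486 CPM, carried by Lyz2 (629 against 418), with Itgam at the floor in both, and the dendritic list to 270 against 138 CPM, with Clec9a at the floor in both. The part of these cells in the higher Ccr1, Ccr2, Ccr3, Xcr1 and Ccrl2 of that library was not tested.

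In the total Treg libraries, the sums of the myeloid and eosinophil lists were lowest where Ccr2 and Ccr1 were highest, but single markers were not always so. The myeloid list summed to 59.9 CPM in the GFP- library, its lowest level, and to 124 and 137 CPM in the mosaic sufficient and deleted libraries. All 10 myeloid markers passed the floor in the GFP- library, and Lyz2 was at 25.2 CPM there against 376 in WT. Lyz2 carried the mosaic sums, with 113 CPM in the sufficient and 124 in the deleted library. Each marker but Lyz2 was higher in GFP- than in mosaic sufficient cells, and each but Lyz2 and Mpeg1 than in mosaic deleted cells. Against GFP+, each but Itgam was lower in GFP-. Itgam had 19 reads in GFP- and 2 to 6 in the other total Treg libraries. S100a8 had 192 reads in GFP+ and 50 in untreated rKO1 cells, and S100a9 had 167 and 45. Lyz2, Csf1r, Cd14, Adgre1, Mpeg1 and Fcgr3 were lower in GFP+ than in untreated rKO1 cells. The part of myeloid cells in the receptor values was not tested. The eosinophil, basophil and mast cell list ranged from 1.49 CPM in the GFP- library to 8.49 in WT, with Siglecf, Il5ra and Ms4a2 at or under the floor in all 6. The dendritic list ranged from 148 to 332 CPM, highest in untreated rKO1, and 4 of its 10 markers were at the floor in the GFP- library (Clec9a, Itgax, Siglech and Flt3). The B cell list summed to 275 CPM in GFP+ and 1262 in GFP-, and to 592 and 149 CPM in the mosaic sufficient and deleted libraries, the direction of Ccr2. Ighm carried these sums, and Cd79b went the same way. Cd79a and Ms4a1 went the other way, with 12.8 and 1.65 CPM in the mosaic sufficient library against 21.8 and 4.44 in the deleted one. In GFP+ against GFP- cells, Cd79a was at 5.83 and 4.88 CPM and Ms4a1 had 22 and 5 reads. Pax5 was at or under the floor in the 3 total Treg libraries from rKO1 mice. The part of B cells in the receptor values was not tested. The CD8 T and NK cell list summed to between 14.8 and 34.3 CPM, with Cd8b1 its highest gene except in untreated rKO1, where Eomes was. Its NK cell markers went with Ccr2 and Cxcr6 in some comparisons. Ncr1 had 104 reads in the mosaic sufficient and 1 in the mosaic deleted library, and Klrb1c had 29 and 2. In GFP+ against untreated rKO1 cells, Ncr1 had 122 and 7 reads and Klrb1c 47 and 3. The aTreg libraries labelled deleted and reexpressed had 8 and 41 reads of Ncr1 and 12 and 40 of Klrb1c. In the GFP- library, where Ccr2 and Cxcr6 were highest among the 6 total Treg libraries, Ncr1 had 0 reads and Klrb1c 4. The part of NK cells in these values was not tested.

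**Figure D3:**
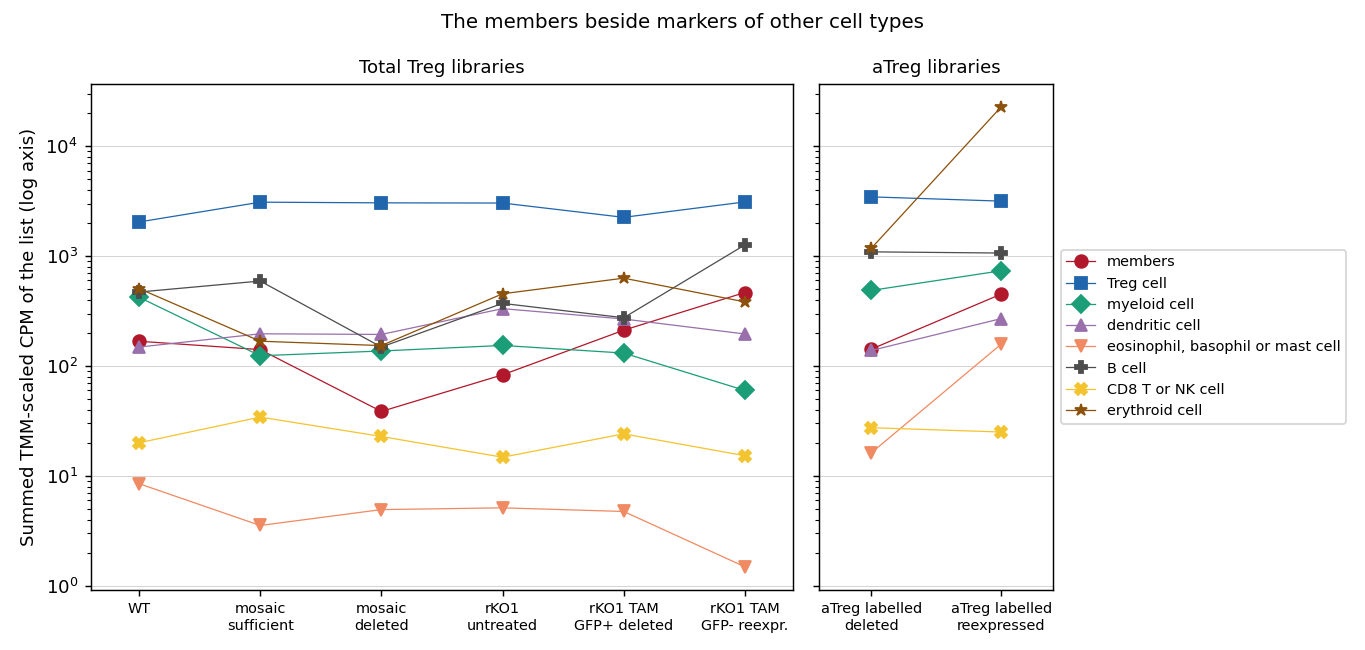
Summed TMM-scaled CPM (log axis) of the 8 members and of 7 marker lists in each library. Among total Treg libraries the members peak at 466 CPM in the GFP- library, where the myeloid list is at 59.9 CPM, and the erythroid list reaches 22872 CPM in the aTreg library labelled reexpressed.

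Neighbours were then compared in chromosome order, using the members with 5 CPM in a total Treg library; adjacent here means next to each other among these, whatever lies between. Over the 6 libraries, Pearson's r of log2(CPM + 0.5) was 0.94 for the adjacent Ccr3 and Ccr2, 0.87 for Cxcr6 and Ccr1, 0.59 for Ccr1 and Ccr3, and -0.36 for Ccr9 and Cxcr6. The median of these 4 adjacent pairs was 0.73, and that of the 6 pairs that are not adjacent was 0.46 (from -0.72 to 0.87). Among the latter, the pairs with Ccr9 ran from -0.72 to 0.12. Those without it had 0.79 (Cxcr6 and Ccr3), 0.87 (Cxcr6 and Ccr2) and 0.82 (Ccr1 and Ccr2). The medians therefore do not set adjacent pairs apart. Ccr1 entered these pairs through the GFP- library alone. For 7877 adjacent pairs of protein-coding genes with starts within 250 kb, the median was 0.12 and the middle range ran from -0.34 to 0.54. The values did not follow distance alone: Ccrl2 and Ccr1, 12.9 Mb apart, had r = 0.96, and Ccrl2 and Ccr9 had r = -0.74. These are descriptions over 6 points that share one scaling, some of which may come from the same mice, and without the mosaic deleted library the median of the adjacent pairs was 0.58.

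**Figure D4:**
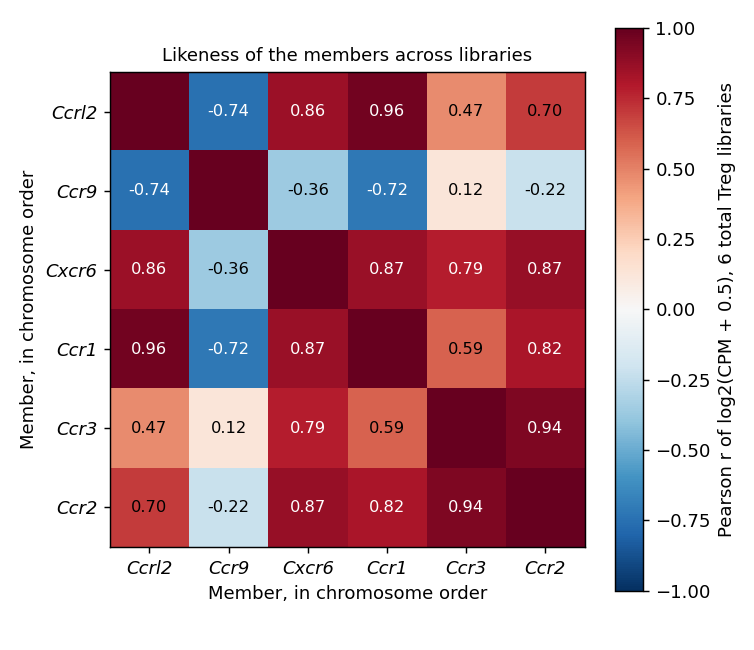
Pearson's r of log2(CPM + 0.5) over the 6 total Treg libraries for 6 members, in chromosome order on both axes. Ccr9 has negative values with Ccrl2 (-0.74), Ccr1 (-0.72), Cxcr6 (-0.36) and Ccr2 (-0.22), and Ccr3 with Ccr2 has the highest value of the adjacent pairs.

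By sign, 3 of 3 adjacent pairs of tested members went the same way in the mosaic pair, 3 of 4 in the rKO1 pair after TAM and 3 of 3 in the aTreg pair, where 53.4%, 52.7% and 54.7% of all adjacent pairs did. These counts rest in part on members that passed the filter only through the library where they were high. These were Ccr3 and Ccr2 in the mosaic pair and Ccr3 and Ccr1 in the rKO1 pair, so the counts are given as a description.

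Genes between and around the receptors were set beside them. Of 22 other protein-coding genes whose start lies within 250 kb of a member, 10 were tested in each of these 3 pairs. Fyco1, a gene of vesicle transport whose span holds Cxcr6, had log2 folds with over without BRG1 of -0.33 in the mosaic pair, 0.30 after TAM and -0.17 in the aTreg pair. Lztfl1, next to Ccr9, had 0.63, 0.30 and 1.22. Limd1 and Sacm1l, on the far side of Ccr9, stayed under 2-fold in all 3 pairs. Only Lztfl1 in the aTreg pair was called in these 3 pairs among the tested genes around the cluster of 7. Near Ccrl2, Tdgf1 was called in the mosaic pair, and Als2cl, Tmie and Tdgf1 after TAM, all lower with BRG1. Als2cl (-1.07) and Ltf (-1.34) of the aTreg pair were called lower in the library labelled reexpressed. Ccrl2 itself was not called in any of the 3.

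**Figure D5:**
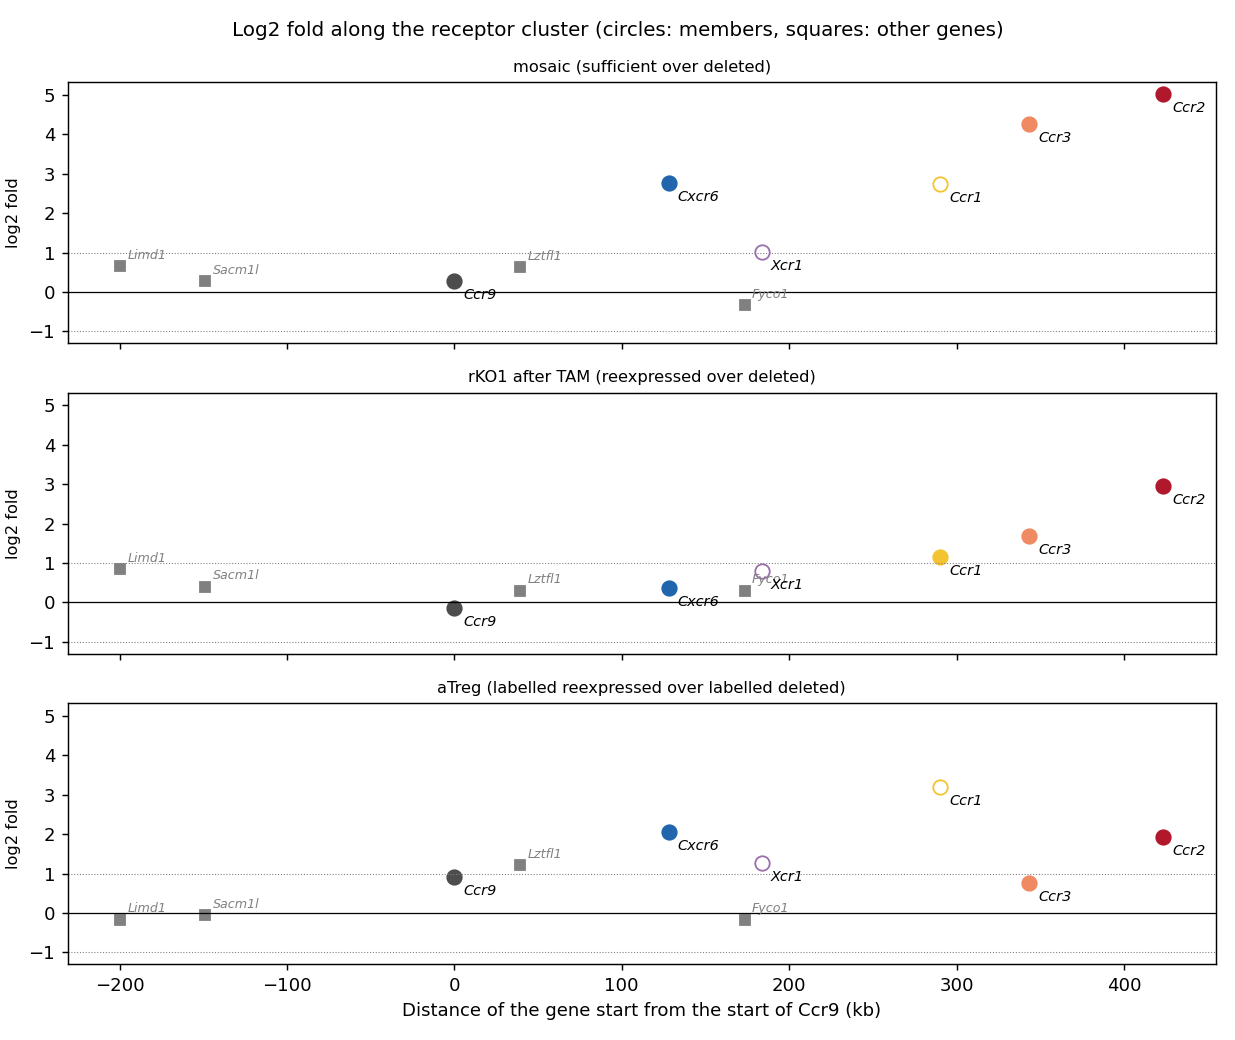
Log2 fold (y axis) against the distance of each gene start from the GENCODE start of Ccr9 (x axis, kb), for members (circles, open where under 5 CPM in both libraries) and other tested protein-coding genes (grey squares). In the mosaic panel Cxcr6 (2.76), Ccr3 (4.26) and Ccr2 (5.02) lie above the 2-fold line, while Lztfl1 (0.63), Fyco1 (-0.33) and Ccr9 (0.29) do not.

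Genes elsewhere in the genome followed single members closely over the 6 libraries. Among 11038 genes, those most like Ccr2 were Rnaseh2c, Ccr10 and Nelfe (r of 0.99 or more). Of these, Ccr10, a skin-homing receptor on chromosome 11, had a comparable span, from 0.411 to 52.9 CPM, while Rnaseh2c ran only from 109 to 234 CPM. Szrd1, Utp11 and Ccs were most like Ccr3, Mkrn1, Sap30 and Manbal most like Cxcr6, and Bik, Dnajc12 and Dhrs13 most like Ccr1. For Ccr9 they were 1300014J16Rik, Ppp1r10 and Grifin, and for Ccrl2 they were Dnajc12, Ap4s1 and Plk4. None of these lies on chromosome 9. With 6 points and so many genes, values of r this high are found for every member.

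The other chemokine receptors, 15 genes on other chromosomes or away from the members, were mostly called in the same direction as the members in the total Treg pairs. In the mosaic pair 6 of 7 tested were called lower without BRG1, led by Ccr10 (41.7-fold), Cxcr3 (18.6-fold), the receptor of the interferon-induced chemokines, and Cxcr5 (11.1-fold), the follicle-homing receptor. Ccr10, Cxcr3 and Cxcr5 passed the filter through the sufficient library alone, with 0.411, 4.07 and 1.27 CPM in the deleted one. After TAM, 4 of 7 were called higher with BRG1, among them Ccr10 (6.74-fold) and Cxcr3 (5.26-fold), and 1 lower, Ccr7 (5.09-fold), the receptor for lymph node entry. In the aTreg pair 0 of 8 were called. Of all genes tested, 6.12% were called in the mosaic pair, 12.8% after TAM and 6.44% in the aTreg pair. With 8 genes, a count of 0 in the aTreg pair does not set the list apart. The median log2 fold change of the tested receptors was -2.50 for deleted over sufficient in the mosaic pair, 1.35 after TAM and -0.13 in the aTreg pair, beside -0.03, 0.06 and -0.06 over all genes.

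Ligands of the members were measured in the same cells. In the mosaic pair 2 of 4 tested of 16 were called lower without BRG1, Ccl4 (0.822 against 7.59 CPM) and Ccl5 (20.8 against 43.7 CPM), both ligands that T cells secrete. After TAM, 2 of 8 were called higher with BRG1, with Ccl5 at 92.9 against 18.3 CPM, and 3 lower, among them Xcl1 (3.39 against 12.3 CPM), the ligand of XCR1, and Ccl6 (5.30 against 17.4 CPM). In the aTreg pair 7 of 9 were called higher in the library labelled reexpressed, led by Ccl8 (6.51 against 0.339 CPM), Ccl24 (7.88 against 0.565 CPM), an eotaxin, and Cxcl16 (8.89 against 1.53 CPM), the ligand of CXCR6. Macrophages are known sources of these, the myeloid marker values of that library are given above, and the part of such cells was not tested. Median log2 fold changes of the tested ligands were -0.33, -0.39 and 2.25 in the 3 pairs, where 6.12%, 12.8% and 6.44% of all genes were called. Of all genes, 4.05% were called lower in the mosaic pair, and 7.08% after TAM and 4.41% in the aTreg pair were called higher. Ccl4 in the mosaic pair and Xcl1 after TAM passed the filter only through the library where they were high. So did most ligands called in the aTreg pair, Ccl8, Ccl24 and Cxcl16 among them, and the counts are a description.

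Genes that pass the receptor signal on were set beside the receptors. Of 27 G protein subunits, arrestins, Rgs proteins and effectors, 24 were tested in each pair. Rgs16, an inhibitor of G protein signaling, was the 1 called in the mosaic pair (2.10 CPM deleted, 5.52 sufficient), Plcb2, a phospholipase downstream of G proteins, the 1 called after TAM (17.8 CPM reexpressed, 36.5 deleted), and 0 were called in the aTreg pair, beside 6.12%, 12.8% and 6.44% of all genes tested. With 24 genes, these counts do not set the list apart. Their medians were 0.02, 0.16 and -0.18. Of 16 other trafficking genes, 15 were tested in the mosaic pair, with 1 called higher and 3 lower without BRG1: Gpr15 (0.209 against 8.26 CPM), a colon-homing receptor, Ltb4r1 (0.493 against 8.53 CPM), the leukotriene B4 receptor, and Itgb1 (26.9 against 117 CPM), the integrin beta1 chain. After TAM, Itgb7 was called higher (1216 against 578 CPM) and Ltb4r1 lower (14.5 against 29.4 CPM) of 14 tested, so Ltb4r1 did not follow Ccr2 there. In the aTreg pair 0 of 15 were called. Of all genes tested, 6.12% were called in the mosaic pair (4.05% lower), 12.8% after TAM and 6.44% in the aTreg pair. In the mosaic pair Gpr15 and Ltb4r1 passed the filter through the sufficient library alone, so that count is a description. The counts after TAM and in the aTreg pair do not set the list apart. The medians of the trafficking genes were -0.18, 0.24 and -0.08, and the reads of Gpr15 and Itgb7 are estimates that did not come out whole.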

How the data were processed

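RNA of 8 Treg libraries was analysed. The authors deposited FPKM values per Ensembl gene. Per the submitters' processing notes, HISAT2 2.0, StringTie 1.3.3b, featureCounts 1.5.0-p3 and mm10 were used; roles and order are not given in the sources used here. Reads were recovered by multiplying FPKM by the merged exon length (GENCODE release M21) and by the library total that made values whole (within 0.02 reads): 93.4% of 25995 genes with reads in the total Treg files and 100% of 21219 in the aTreg files were whole in every library, all members among them. Others kept fractional estimates, and 191 identifiers had no annotation. An own implementation of TMM (tested on simulated data) scaled the libraries of each experiment separately. Fold changes used a prior of 0.125 reads, genes with 5 CPM in either library were tested, and 2-fold was called. The study's adjusted p needs replicates, so none is given here. There were 10 comparisons. Python 3.11.15, NumPy 2.4.6, SciPy 1.17.1 and pandas 2.3.3 were used. Named genes were the members, the 3 called genes with the largest change per list, the 3 most correlated genes per member and genes within 250 kb. The members and lists were chosen with earlier results of these data known. Results for some genes are not reported here, and these were left out of the rankings. Alternatives were other scalings, filters, priors, a 1.5-fold threshold, and leaving out each library.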

Additional observations from a re-analysis of the deposited data

Results flagged for a closer look

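By the titles, the direction of Ccr9 with BRG1 was not the same in the 3 pairs titled as differing in BRG1. Its log2 fold, titled with over titled without BRG1, was 0.29 in the mosaic pair (1.22-fold, 95% counting interval 1.04 to 1.44), -0.13 in the total Treg pair after TAM (0.912-fold, 0.688 to 1.21) and 0.91 in the aTreg pair (1.88-fold, 1.67 to 2.13). The difference between the pairs was not tested, as each rests on 1 library per condition, and the value after TAM lies within counting error of no difference. Smarca4 went against the titles of the aTreg pair. Ccrl2 was higher in the library titled with BRG1 in all 3 pairs by TMM, but by total count alone its log2 fold, deleted over sufficient, was 0.00 in the mosaic pair, and reexpressed over deleted was -0.18 after TAM.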

How the results depend on the processing

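No paired analysis was possible because each condition has 1 library. Scaling by total count, by median-of-ratios size factors, over the 2 libraries alone or by FPKM as deposited, and a prior of 1 read, left each count of called members within 1.5 times its value, as did leaving the erythroid genes out of the aTreg totals, which was chosen after seeing the data. By total count alone, Ccr1 after TAM had a log2 fold of 0.81 and lost its call (2 members called, 3 before), the log2 fold of Ccrl2 turned from -0.13 to 0.00 in the mosaic pair and from 0.17 to -0.18 after TAM, and that of Cxcr6 in untreated rKO1 against mosaic sufficient cells from -0.14 to 0.21. With a filter at 1 CPM or none, more members were called: 5 and 5 in the mosaic pair (3 before), 4 and 5 in untreated rKO1 against mosaic deleted (2 before), 4 and 4 in GFP+ against untreated (2 before), and 4 and 4 in the aTreg pair (2 before), because more members were tested. At 1.5-fold, 3 were called between WT and mosaic sufficient (0 before) and 5 in the aTreg pair (2 before). The median r of adjacent members was 0.73, between 0.69 and 0.79 under other scalings and pseudocounts, and between 0.58 (without the mosaic deleted library) and 0.88 (without WT) when 1 library was left out. Depth limits Ccr1, Xcr1 and Ccr1l1, which had few reads or none.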
